A study of Mus musculus with 33 samples.

Results

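The comparison described here sets *Hp1γ*Δ/Δ ESCs directly against *Hp1β*Δ/Δ ESCs, with 3 RNA-seq libraries of each genotype, which are 6 of the 33 libraries of the series. The libraries were chosen by their genotype labels, and the counts of both mutants were joined by gene identifier. Each single mutant was deposited beside the same *wild-type* libraries, and the direct comparison leaves those shared controls out, so that it asks which genes differ according to whether HP1γ or HP1β is missing. Both lines are C57BL/6 mouse ESCs (embryonic stem cells) with a constitutive knockout made by CRISPR/Cas9, and the other two HP1 genes were not targeted in either line. Cells were grown on feeder fibroblasts, and mutant lines were isolated as clones. The sources used here do not say how many clones the 3 libraries of a genotype represent, so the p-values measure only the spread between these libraries, which may be technical, and a difference between genotypes cannot be told apart from a difference between clones. For reference, values are also given for *wild-type* ESCs (set A, which accompanies the tables of *Hp1α/β*Δ/Δ ESCs and of each single mutant, and set B, deposited beside *Hp1α/γ*Δ/Δ ESCs), for *Hp1α*Δ/Δ ESCs and for these double mutants, with 3 libraries each and all of the same strain. The triple mutant *Hp1α/β/γ*Δ/Δ and the double mutant *Hp1β/γ*Δ/Δ, also with 3 libraries each, enter only the scaling of levels and the plot of chromosome 16.

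HP1 proteins are small nuclear proteins that read histone H3 methylated on lysine 9 through a chromodomain, and that dimerise and recruit partner proteins through a chromoshadow domain. They are best known for holding repeats and lineage-inappropriate genes silent in heterochromatin. HP1α and HP1β are concentrated at pericentric heterochromatin, whereas HP1γ is also found in euchromatin and within transcribed genes.

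The guide RNAs that the study used to delete parts of both genes are shown because they define the compared genotypes. They were used in pairs, upstream and downstream of the deleted part, and are written 5′ to 3′ in lower case.
HP1β upstream: tactaggaaagtctagcgat
HP1β downstream: tcttgcatagaagcctaggc
HP1γ upstream: gaggtgcttacactggatca
HP1γ downstream: tatgatagccttgccgagcg
The HP1β upstream guide matched the plus strand of chromosome 11 from 96801311 to 96801330 (GRCm38), within *Cbx1* and in a retained intron of the transcript Cbx1-205, and was followed by the PAM TGG. The other 3 guides had no match in annotated transcripts of *Cbx1* or *Cbx3*, and their positions are not given here.

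The libraries of *Hp1γ*Δ/Δ ESCs held 19961427 to 24699653 counts and those of *Hp1β*Δ/Δ ESCs 20233390 to 22828592. Levels are given as CPM (counts in 1 M counts of a library after TMM scaling over 27 libraries). Replicate 1 of *Hp1β*Δ/Δ ESCs stood somewhat apart from the other two, with a Pearson's r across genes of 0.986 and 0.985 against 0.989 between the latter. Markers of ESCs were high in both mutants, except *Fut4*. It had 1.18 to 1.8 CPM without HP1γ and 1.8 to 2.72 CPM without HP1β. *Pou5f1* (Oct4) reached 878 to 898 CPM without HP1γ and 994 to 1102 CPM without HP1β. Fibroblast genes summed to 1525 to 1580 CPM in *Hp1γ*Δ/Δ ESCs and 1342 to 1450 CPM in *Hp1β*Δ/Δ ESCs over 16 genes, of which *Fn1* made up most. Of the others, *Tagln* had 29.2 to 43 CPM, *Mmp2* 19 to 25.6 CPM and *Col1a1* 13 to 18.4 CPM over both mutants, while *Lum* and *Prrx1* stayed at or below 0.134 and 0.243 CPM and *Fap* was at 0 in all 6 libraries. Before use, the study depleted feeder cells by letting them attach to gelatin-coated dishes.

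Each mutant had less transcript of its own gene and kept that of the other. *Cbx1*, which encodes HP1β, lies on chromosome 11 from 96789127 to 96808640 (GRCm38). In TPM, which is scaled by length and so allows genes to be compared, the libraries without HP1β had 65.0, 67.9 and 74.9, while those without HP1γ had 431, 438 and 439.9. *Cbx3*, which encodes HP1γ and lies on chromosome 6 from 51470360 to 51483704, had 69.1, 72.7 and 82.1 TPM in *Hp1γ*Δ/Δ ESCs and 152, 167 and 169 TPM in *Hp1β*Δ/Δ ESCs. In TPM, remaining transcript was thus 15.4% of the mean of *wild-type* set A for *Cbx1* in its mutant and 51.5% for *Cbx3* in its mutant. The share depends on the measure. In CPM, the means were 102 in the mutant and 434.8 in *wild-type* set A for *Cbx1*, and 74.4 and 175.4 for *Cbx3*. The log2 fold changes of *Hp1γ*Δ/Δ against *Hp1β*Δ/Δ ESCs were 2.1 for *Cbx1* and −1.44 for *Cbx3*. The counts cover the whole gene, so they do not tell deleted from kept exons.

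*Cbx5*, which encodes HP1α, differed little, with 78.1, 77.6 and 83.2 TPM in *Hp1γ*Δ/Δ ESCs and 84.4, 88.3 and 83.6 TPM in *Hp1β*Δ/Δ ESCs. Its log2 fold change of −0.08 (standard error 0.041) was not called, with a Benjamini-Hochberg adjusted p = 0.151 by the quasi-likelihood test of edgeR. Because *Cbx1* was the most abundant of these transcripts, the mutants differed in how much HP1 transcript was left. The sum of *Cbx1*, *Cbx3* and *Cbx5* was 591 ± 13.7 TPM without HP1γ, 318 ± 13.9 TPM without HP1β and 686 ± 12.3 TPM in *wild-type* set A (SD, n = 3 each). These sums include transcript left from the targeted gene. Protein levels were not analysed here, but the study reports by western blot that the mutants lacked the HP1 protein of the targeted gene.

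**Figure D1:**
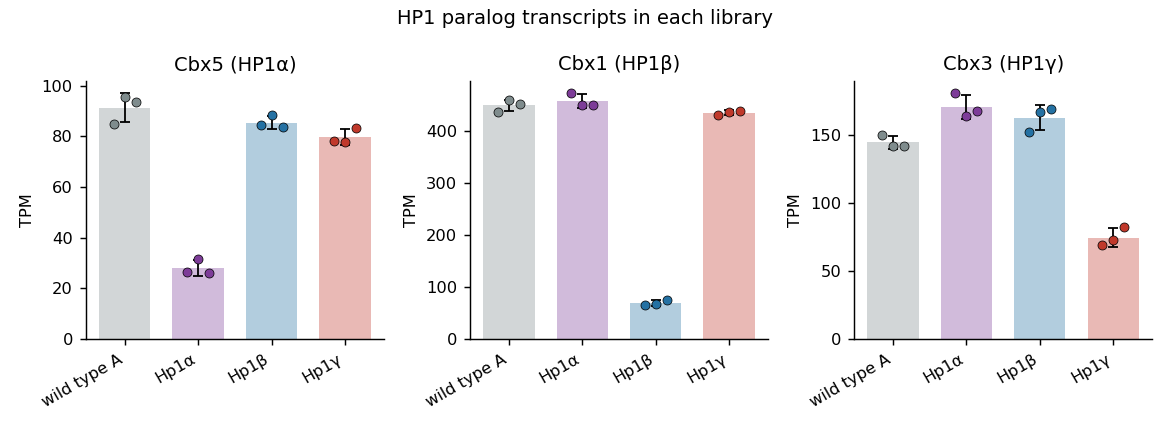
Transcript levels of the HP1 genes in TPM (y axis, from 0) in *wild-type* set A and the single mutants, with bars for the mean, error bars for the SD and points for the 3 libraries of each group. *Cbx1* falls to 15.4% of *wild-type* in *Hp1β*Δ/Δ ESCs, and *Cbx3* to 51.5% in *Hp1γ*Δ/Δ ESCs.

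Of 15702 genes tested, 606 were called, which required an adjusted p below 0.05 together with a log2 fold change above 1 or below −1. Here and below a positive fold change means higher in *Hp1γ*Δ/Δ ESCs. Of the called genes 323 were higher (2.06% of genes tested) and 283 were lower (1.8%) in *Hp1γ*Δ/Δ ESCs. Called genes were mostly weakly expressed. Among those higher, the median level in *Hp1γ*Δ/Δ ESCs was 2.78 CPM, and among those lower, the median in *Hp1β*Δ/Δ ESCs was 2.88 CPM, beside 17.4 CPM for all genes tested. In 215 called genes the higher mutant had a mean of at least 5 CPM. The libraries of both mutants did not overlap in 599 of the 606 called genes and in 45.1% of all genes tested, and with 3 libraries a group an exact permutation test cannot give a p under 0.1. Without the fold threshold, 15.8% of genes were higher and 15.2% lower in *Hp1γ*Δ/Δ ESCs, with a median absolute log2 fold change of 0.206 over all genes.

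**Figure D2:**
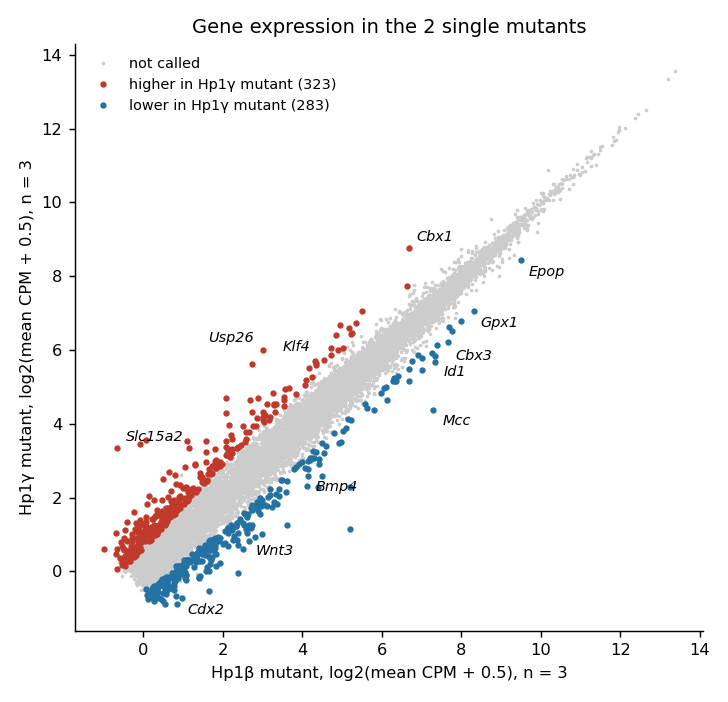
Mean expression of 15702 genes in *Hp1β*Δ/Δ ESCs (x axis) and *Hp1γ*Δ/Δ ESCs (y axis) as log2(CPM + 0.5), with 3 libraries a group. The 323 genes called higher (red) and 283 called lower (blue) in *Hp1γ*Δ/Δ ESCs lie mostly at the low end of expression, with *Cbx1* and *Epop* among the abundant exceptions.

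Several of the genes with the largest differences are known for expression in germ cells and were higher in *Hp1γ*Δ/Δ ESCs. Other germ cell genes were lower, and the germ cell lists described further on were divided. *Usp26*, an X-linked gene for a deubiquitinase of the testis, had 62.0, 69.0 and 61.2 CPM in *Hp1γ*Δ/Δ ESCs and 6.97, 7.71 and 7.87 CPM in *Hp1β*Δ/Δ ESCs. By the same edgeR test, the log2 fold change of 3.11 (standard error 0.082) had an adjusted p = 2.04e-09. Both mutants lay below *wild-type* set A, with a mean of 172 CPM, and *Hp1β*Δ/Δ ESCs lay far lower.

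*Fmr1nb*, an X-linked cancer-testis gene, had 11.7, 11.0 and 11.4 CPM in *Hp1γ*Δ/Δ ESCs against 0.923, 0.268 and 0.427 CPM in *Hp1β*Δ/Δ ESCs, a log2 fold change of 4.43 (standard error 0.263). *Wild-type* set A lay between these groups, with a mean of 2.15 CPM. *Cyct*, which encodes the testis form of cytochrome c, had 19.1, 17.7 and 20.4 CPM against 3.85, 4.68 and 2.65 CPM, a log2 fold change of 2.37. Its mean in *wild-type* set A was 28.6 CPM, nearer to *Hp1γ*Δ/Δ ESCs.

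*Stra8*, which is induced by retinoic acid at entry into meiosis, had 12.5, 9.62 and 11.3 CPM in *Hp1γ*Δ/Δ ESCs against 2.56, 2.41 and 2.42 CPM in *Hp1β*Δ/Δ ESCs. For this gene it was *Hp1β*Δ/Δ ESCs that resembled *wild-type* set A (2.52 CPM). *Dmc1*, the meiotic recombinase, had 49.7, 44.9 and 49.0 CPM against 18.2, 20.2 and 21.1 CPM, with 48.7 CPM in *wild-type* set A. *Tex14*, required for intercellular bridges of germ cells, had 28.2, 25.6 and 30.8 CPM against 10.1, 8.74 and 8.54 CPM. *Dmc1* and *Tex14*, with smaller log2 fold changes of 1.29 and 1.65, were again near *wild-type* in *Hp1γ*Δ/Δ ESCs.

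The 250 bases before the RefSeq transcription start are shown for *Usp26*, *Cyct* and *Fmr1nb*, which were also lower without HP1β in the α-null cells described further on. Sequences are from GRCm38.p6, 5′ to 3′ on the strand of the gene, with CpG dinucleotides, the sites of DNA methylation, in capitals.
Usp26, chrX:51801234-51801483, minus strand: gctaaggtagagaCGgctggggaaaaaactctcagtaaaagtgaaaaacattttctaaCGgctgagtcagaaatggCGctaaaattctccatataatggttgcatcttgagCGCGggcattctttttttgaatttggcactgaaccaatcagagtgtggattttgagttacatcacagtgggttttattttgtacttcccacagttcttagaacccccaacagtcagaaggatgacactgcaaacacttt
Cyct, chr2:76360454-76360703, minus strand: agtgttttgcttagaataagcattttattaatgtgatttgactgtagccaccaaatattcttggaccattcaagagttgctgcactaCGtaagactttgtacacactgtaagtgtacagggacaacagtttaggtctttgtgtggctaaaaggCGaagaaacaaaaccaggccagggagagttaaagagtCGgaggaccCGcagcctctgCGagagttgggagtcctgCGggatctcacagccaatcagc
Fmr1nb, chrX:68761589-68761838, plus strand: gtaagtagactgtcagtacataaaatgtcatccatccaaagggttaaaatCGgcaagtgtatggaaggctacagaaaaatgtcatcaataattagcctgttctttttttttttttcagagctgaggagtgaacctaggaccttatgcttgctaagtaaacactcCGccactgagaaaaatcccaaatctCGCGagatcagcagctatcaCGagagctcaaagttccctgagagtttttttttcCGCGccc
These stretches hold 5, 6 and 7 CpG dinucleotides, respectively. The median over the 11416 of 15702 tested genes with such a window was 15 CpG in 250 bases. Windows were matched by symbol for 213 of the 323 genes higher and 167 of the 283 genes lower in *Hp1γ*Δ/Δ ESCs, which is under 80%, so a share of CpG or of the motifs CACGTG and GCGGGAA over these genes would be void and is not given. The match over all tested genes was under 80% as well, so their median gives only a scale.

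Other genes with large rises came from unrelated families. *Slc15a2*, a peptide transporter on chromosome 16, had 10.7, 9.66 and 8.52 CPM in *Hp1γ*Δ/Δ ESCs and 0, 0.401 and 0 CPM in *Hp1β*Δ/Δ ESCs. *Slfn9*, of the Schlafen family, had 26.4, 25.1 and 24.9 CPM against 2.51, 4.95 and 3.604 CPM. *Wild-type* set A lay between both mutants for these genes, so that they were above *wild-type* in one mutant and below it in the other.

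*Asb4*, *Ndufa4l2* and *Dnah12* reached at most 6.80 CPM and had log2 fold changes of 2.55, 2.51 and 2.18. *Pagr1a* had a log2 fold change of 4.56, but its libraries of *Hp1γ*Δ/Δ ESCs ranged from 4.94 to 21.0 CPM. It overlaps the genes *Pagr1b* and *Gm42742* on the same strand in the annotation, so the division of reads between them is uncertain.

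Genes lower in *Hp1γ*Δ/Δ ESCs included several signalling and developmental genes that *Hp1β*Δ/Δ ESCs expressed above *wild-type*. *Id1*, an inhibitor of basic helix-loop-helix factors and a target of BMP signalling, had 50.2, 50.9 and 51.5 CPM in *Hp1γ*Δ/Δ ESCs and 164, 163 and 157 CPM in *Hp1β*Δ/Δ ESCs. The edgeR test gave a log2 fold change of −1.65 (standard error 0.045) with an adjusted p = 2.04e-09, and *wild-type* set A had 58.9 CPM. *Bmp4*, a ligand of that pathway, had 5.61, 4.33 and 6.53 CPM against 15.1, 19.8 and 17.1 CPM, with 4.65 CPM in *wild-type* set A. Both genes were thus near *wild-type* in *Hp1γ*Δ/Δ ESCs and higher in *Hp1β*Δ/Δ ESCs. In the α-null cells described further on, the contrast went the opposite way, with log2 fold changes of 2.72 for *Id1* and 2.08 for *Bmp4*. Loss of HP1β in those cells gave −0.67 for *Id1* and 0.73 for *Bmp4*.

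*Nodal*, the TGFβ-family ligand of the epiblast, was likewise near *wild-type* in *Hp1γ*Δ/Δ ESCs. It had 54.6, 50.7 and 49.5 CPM there against 117, 104 and 104 CPM in *Hp1β*Δ/Δ ESCs, and a mean of 49.5 CPM in *wild-type* set A. Over the list of Nodal and BMP signalling genes, 3 of 19 tested members were lower and none was higher. *Id2* and *Id3*, further BMP targets, stayed under the fold threshold with log2 fold changes of −0.85 and −0.68.

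*Wnt3*, a Wnt ligand that acts in primitive streak formation, had 1.40, 1.01 and 1.41 CPM in *Hp1γ*Δ/Δ ESCs against 6.05, 5.66 and 5.59 CPM in *Hp1β*Δ/Δ ESCs. *Wnt7b*, another ligand, had 3.604, 2.55 and 2.94 CPM against 9.74, 10.1 and 9.39 CPM. *Hand1*, a transcription factor of trophoblast and mesoderm, had 4.61, 5.09 and 3.62 CPM against 19.8, 15.5 and 15.1 CPM. In each of these genes *wild-type* set A lay with *Hp1γ*Δ/Δ ESCs, at 1.74, 3.50 and 3.39 CPM.

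*Mcc*, a suppressor of Wnt signalling and the gene with the largest fall among those of at least 5 CPM, differed in another way. It had 21.1, 18.97 and 20.4 CPM in *Hp1γ*Δ/Δ ESCs and 142, 166 and 162 CPM in *Hp1β*Δ/Δ ESCs, a log2 fold change of −2.94 (standard error 0.078). *Wild-type* set A had 72.1 CPM, below one mutant and above the other. *Pdzd2*, which encodes a PDZ-domain protein, had 5.21, 5.30 and 5.98 CPM against 22.8, 21.6 and 21.3 CPM, and here *wild-type* set A was higher than both at 36.6 CPM.

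Other genes with large falls were *Xlr3b*, *Pla2g7*, *Dmkn*, *Scn3b* and *Unc45b*, with log2 fold changes between −2.30 and −1.69. Of these *Pla2g7*, which encodes a secreted phospholipase, had 7.49, 7.93 and 6.83 CPM in *Hp1β*Δ/Δ ESCs against 1.201, 1.25 and 2.13 CPM in *Hp1γ*Δ/Δ ESCs. *Xlr3b* belongs to a family of near-identical copies on the X chromosome, so its counts are uncertain.

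**Figure D3:**
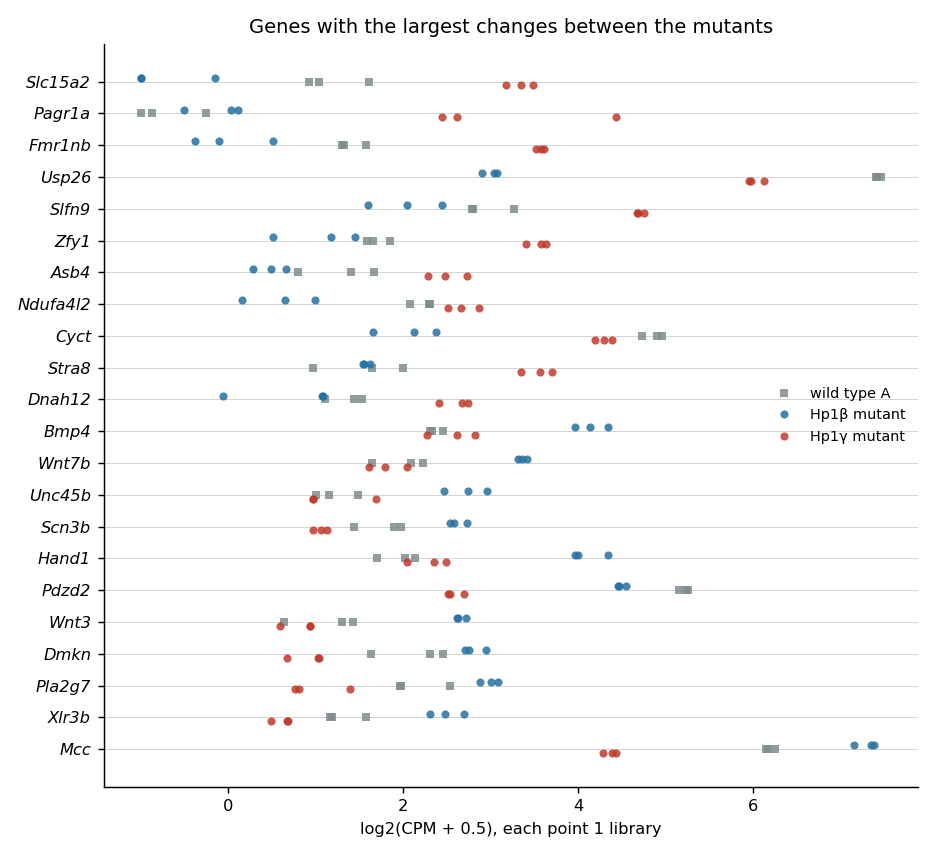
Expression of 22 named genes with the largest rises and falls, as log2(CPM + 0.5) on the x axis, with 1 point for each library of *Hp1β*Δ/Δ ESCs (blue), *Hp1γ*Δ/Δ ESCs (red) and *wild-type* set A (grey squares). The genes were chosen among those whose groups do not overlap, and *wild-type* lies with *Hp1γ*Δ/Δ ESCs for *Bmp4* and *Wnt3*, with *Hp1β*Δ/Δ ESCs for *Stra8* and outside both for *Usp26* and *Pdzd2*.

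Gene lists were read by the number of their members called, beside the 2.06% and 1.8% of all genes called higher and lower, and by their median log2 fold change beside 0.01 for all genes. Trophoblast genes had the lowest median, −0.97, with 5 of 14 tested members lower and none higher. The list summed to 261 to 266 CPM in *Hp1γ*Δ/Δ ESCs and 370 to 429 CPM in *Hp1β*Δ/Δ ESCs. In *wild-type* set A the sum was 163 to 171 CPM, below both mutants. *Krt8*, a keratin of simple epithelia, had 92.8, 91.5 and 90.8 CPM in *Hp1γ*Δ/Δ ESCs and 243, 202 and 202 CPM in *Hp1β*Δ/Δ ESCs. *Cdx2*, a master regulator of trophectoderm, had 0.1001, 0.0809 and 0.136 CPM against 2.0, 1.34 and 1.09 CPM, a log2 fold change of −3.72 at a low level. *Wild-type* set A had 56.7 CPM of *Krt8*, below both mutants, and 0.17 CPM of *Cdx2*, near *Hp1γ*Δ/Δ ESCs. *Hand1*, *Gata3* and *Cyp11a1* were the others called. In these bulk libraries, fewer cells of a type and less RNA per cell cannot be told apart. One member, *Tfap2c*, a factor of trophoblast and germ cell precursors, passed the adjusted p the other way, with a log2 fold change of 0.62.

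Of 12 tested mesoderm genes 4 were lower (*T*, *Hand1*, *Bmp4* and *Snai1*) and 1 was higher (*Tbx6*), with a median of −0.21. *Tbx6* reached at most 0.725 CPM, and its call was lost under DESeq2 and when any of 5 of the 6 libraries was left out. *T* (Brachyury) had 0.4004, 0.364 and 0.136 CPM in *Hp1γ*Δ/Δ ESCs and 1.13, 1.25 and 1.28 CPM in *Hp1β*Δ/Δ ESCs, which is a low level in both. Of 13 Wnt target genes 4 were lower (*Wnt3*, *T*, *Sp5* and *Wnt3a*) and *Lef1* was higher. *Lef1*, a nuclear mediator of Wnt signals, had 6.96, 6.55 and 8.38 CPM against 2.72, 2.81 and 3.75 CPM. Lists share members such as *T* and *Hand1*, so they are not independent of each other.

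Among 11 tested endoderm genes *Sox7* was lower, and the median was −0.52. The extracellular matrix genes of this list, *Col4a1*, *Col4a2*, *Lama1* and *Sparc*, passed the adjusted p with log2 fold changes of −0.67, −0.83, −0.52 and −0.58 but not the fold threshold. Of 31 axon guidance genes 3 were lower, *Ntn1*, *Unc5b* and *Sema3f*, and none was higher. *Unc5b*, a netrin receptor, had 39.7, 36.3 and 40.4 CPM in *Hp1γ*Δ/Δ ESCs and 86.7, 83.1 and 85.1 CPM in *Hp1β*Δ/Δ ESCs, and *Ntn1*, its ligand, 36.7, 32.9 and 35.5 CPM against 79.5, 78.0 and 85.2 CPM. Ligand and receptor were thus both lower in *Hp1γ*Δ/Δ than in *Hp1β*Δ/Δ ESCs, without overlap, as were 45.1% of all genes in either direction. *Wild-type* set A had 39.2 CPM of *Unc5b*, near *Hp1γ*Δ/Δ ESCs, and 63.2 CPM of *Ntn1*, between both mutants. In the α-null contrast described further on they diverged, with log2 fold changes of −2.56 for *Unc5b* and 1.35 for *Ntn1*.

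Small differences of 1 direction were frequent in some lists. Of 14 p53 target genes 12 were lower at an adjusted p under 0.05, beside 15.2% of all genes, while only *Perp*, an apoptosis effector, also passed the fold threshold. *Mdm2*, the ubiquitin ligase of p53, had a log2 fold change of −0.68 and *Phlda3* of −0.99. Of 21 cholesterol synthesis genes 17 were higher at an adjusted p under 0.05, beside 15.8% of all genes, and none was lower. *Hmgcs1*, an early enzyme of the pathway, had a log2 fold change of 0.57, and no member reached the fold threshold.

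Hypoxia and glycolysis genes had a median of 0.40, with 3 of 25 called higher and none lower. *Bnip3*, a mitophagy receptor induced by hypoxia, had 86.0, 82.0 and 82.9 CPM in *Hp1γ*Δ/Δ ESCs and 30.4, 26.2 and 27.6 CPM in *Hp1β*Δ/Δ ESCs. *Egln3*, a HIF prolyl hydroxylase, had 25.2, 21.8 and 21.8 CPM against 8.61, 7.22 and 8.49 CPM. *Wild-type* set A lay above both mutants for these genes, at 102 and 54.8 CPM. *Pfkp*, a phosphofructokinase subunit, was the third called gene, with a log2 fold change of 1.12. Other abundant glycolytic genes differed less and in both directions, with log2 fold changes of 0.41 for *Tpi1*, 0.40 for *Pgk1*, 0.26 for *Aldoa*, 0.19 for *Ldha*, −0.07 for *Pkm*, −0.15 for *Gapdh* and −0.15 for *Pgam1*.

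The germ cell lists were divided. Of 14 piRNA and meiosis genes *Stra8*, *Dmc1* and *Gtsf1* were higher and none was lower, with a median of 0.48. Of 21 methylation-silenced germ cell genes *Tex14* was higher, *Tex101*, *Mov10l1* and *Mael* were lower, and the median was −0.30. *Mael*, a piRNA factor, had 3.70, 2.18 and 4.12 CPM in *Hp1γ*Δ/Δ ESCs and 6.97, 8.02 and 7.25 CPM in *Hp1β*Δ/Δ ESCs. Of the Rhox homeobox genes on the X chromosome 4 of 27 were tested, *Rhox6* and *Rhox9* were higher and *Rhox13* was lower. The calls of these *Rhox* genes and of *Gtsf1*, *Tex101* and *Mael* were each lost when at least 1 of the single libraries was left out, and that of *Tex101* also under DESeq2. None of the 2-cell-stage genes passed the filter on low counts, and they summed to at most 1.09 CPM in any of the 6 libraries.

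Chromatin regulators showed few differences past the fold threshold, as did genes in general. No gene was called among 12 H3K9 methyltransferases and SETDB1 partners, 9 H3K9 demethylases, 9 DNA methylation and TET enzymes, 15 HP1 binding partners and 13 PRC1.6 subunits. With 2.06% of all genes called higher and 1.8% lower, lists of this size would hold few calls in any case. The median of each of these lists lay between −0.06 and 0.02. Between 0 and 4 members of each list passed the adjusted p in a given direction, beside 15.8% of all genes higher and 15.2% lower. Among the 12 H3K9 methyltransferases and SETDB1 partners, 3 were higher and 4 lower in this sense. Their log2 fold changes were small, from −0.31 for *Suv39h1* to 0.32 for *Atf7ip*. In PRC2, *Epop*, an accessory subunit, was lower with 366, 339.7 and 340.5 CPM in *Hp1γ*Δ/Δ ESCs against 788, 692 and 692 CPM in *Hp1β*Δ/Δ ESCs. *Wild-type* set A had 302 CPM.

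Of 24 pluripotency genes 1, *Klf4*, a factor of the naive network, was called. It had 52.1, 49.1 and 52.3 CPM in *Hp1γ*Δ/Δ ESCs and 18.1, 20.2 and 19.9 CPM in *Hp1β*Δ/Δ ESCs, a log2 fold change of 1.41 (standard error 0.069), with 17.03 CPM in *wild-type* set A. *Klf4* was therefore higher than *wild-type* in *Hp1γ*Δ/Δ ESCs. The core factors *Pou5f1*, *Nanog* and *Sox2* had log2 fold changes of −0.20, 0.13 and 0.24, past the adjusted p but far below the fold threshold.

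**Figure D4:**
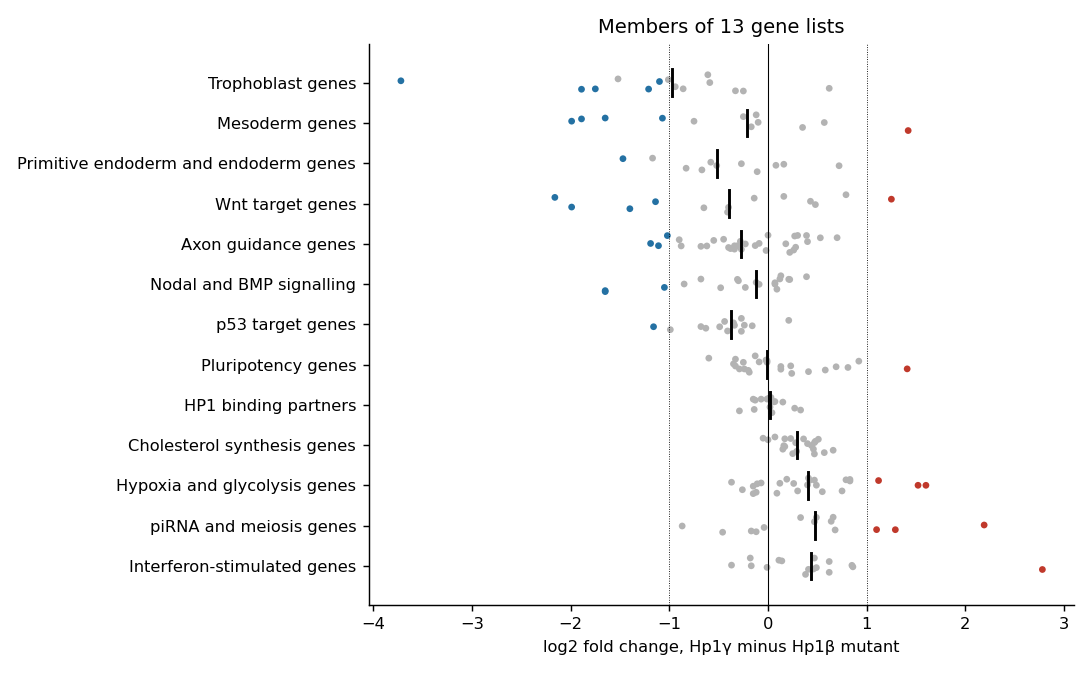
Log2 fold changes of *Hp1γ*Δ/Δ against *Hp1β*Δ/Δ ESCs (x axis) for the tested members of 13 gene lists, 1 point a gene, with called genes in red (higher) and blue (lower), a black bar for the median of a list and dotted lines at the fold threshold. Trophoblast genes have a median of −0.97, and the HP1 binding partners stay close to 0.

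In the remaining lists between 0 and 3 members were called in a direction. *Itga3* (an integrin subunit), *Acta1* (skeletal actin), *Gpx1* (a glutathione peroxidase), *Etv4* (a target of FGF signalling), *H19* (an imprinted non-coding RNA) and *Nr4a2* (an immediate early gene) were lower. *Ddx60* (an interferon-stimulated helicase) and *Sgce* (an imprinted gene) were higher. Collagens were divided, with *Col6a3*, *Col1a2* and *Col5a2* higher and *Col6a1* lower. *Col1a2* is also a feeder fibroblast gene, the only one of 11 tested that was called, and the part of feeder cells that remained after their depletion was not tested. None of 9 neural genes was called, with a median of −0.30. At an adjusted p under 0.05, 5 of these 9 were lower and none was higher, beside 15.2% of all genes lower. None of 21 tested members of a list of histone and other RNAs mostly without a poly(A) tail was called, with a median of 0.64 and standard errors up to 1.03. The sources differ on whether the library kit was one for total RNA, so the level of such RNAs is not read further.

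Called genes also lay next to each other in the genome. The longest run of neighbouring tested genes called in 1 direction spanned 6 genes on chromosome 3 from 93273523 to 93449077, with *Flg*, *Hrnr* and *Tchh*, which belong to the epidermal differentiation complex. *Tchh* had 8.11, 7.198 and 7.97 CPM in *Hp1γ*Δ/Δ ESCs and 19.8, 20.9 and 22.1 CPM in *Hp1β*Δ/Δ ESCs. A long non-coding RNA of this run, *Gm37245*, overlaps *Hrnr* and *Tchh* on the opposite strand, and *Rplp0-ps1* lies within *Flg*, so their counts are not independent. *Gm37245*, *Gm37913* and *Rplp0-ps1* each lost their call when single libraries were left out, and the libraries of *Gm37913* overlapped, so the length of the run rests on these genes. A run of 3 genes on chromosome 11 from 83191330 to 83260960, with *Slfn3*, was higher. Its other members, *AI662270* and *Gm11427*, overlap on the same strand, so their counts are not independent either.

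A further run of 3 genes lay on the Y chromosome from 725128 to 956786. *Zfy1*, *Uba1y* and *Kdm5d* were higher in *Hp1γ*Δ/Δ ESCs, with *Kdm5d*, a histone H3K4 demethylase, at 27.7, 22.7 and 25.7 CPM against 7.03, 6.95 and 6.64 CPM. *Wild-type* set A had 22.4 CPM of *Kdm5d* but 2.76 CPM of *Zfy1*, which had 10.1, 11.4 and 11.9 CPM against 0.923, 2.23 and 1.75 CPM. Of 14 tested genes of the Y chromosome 4 were higher and 1 was lower, the largest share of any chromosome. Among autosomes, chromosome 17 had the largest share higher, 29 of 800 genes against 6 lower, and chromosome 3 the largest share lower, 22 of 752 genes against 8 higher.

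Chromosome 16 stood apart as a whole. Its median log2 fold change was −0.19 over 452 genes, while every other chromosome lay between −0.03 and 0.37 and every other autosome between −0.03 and 0.07. On chromosome 16, 75.7% of genes had a negative fold change, against 47.2% elsewhere. The median was negative in each of 10 bins of 10 Mb, from −0.27 to −0.10, with at least 8 genes a bin. Only 18 of the called genes lie on this chromosome, 8 of them higher and 10 lower.

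Set against the mean of *wild-type* set A, the median of chromosome 16 was −0.50, −0.48 and −0.48 in the libraries of *Hp1γ*Δ/Δ ESCs and −0.27, −0.28 and −0.27 in those of *Hp1β*Δ/Δ ESCs, over 353 genes with at least 5 CPM. It was −0.49, −0.48 and −0.49 in *Hp1α*Δ/Δ ESCs and −0.06, −0.08 and −0.09 in *wild-type* set B. Other autosomes lay between −0.08 and 0.15 in the single mutants. The libraries of *Hp1β*Δ/Δ and *Hp1γ*Δ/Δ ESCs did not overlap. Genomic DNA was not analysed here, and a number of copies was not tested.

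**Figure D5:**
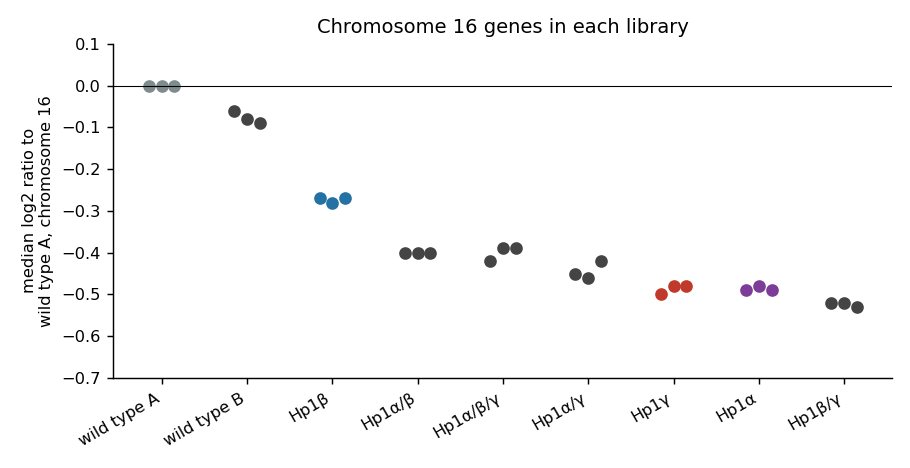
Median log2 ratio of chromosome 16 genes to the mean of *wild-type* set A (y axis) in each library of 9 groups, 1 point a library. *Wild-type* libraries lie near 0, *Hp1β*Δ/Δ ESCs at −0.28 to −0.27, and *Hp1γ*Δ/Δ ESCs at −0.50 to −0.48.

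Most called genes were nearer to libraries outside the comparison in *Hp1γ*Δ/Δ ESCs than in *Hp1β*Δ/Δ ESCs. The share over all genes tested was not determined, so the shares below are not read as a trait of the called genes. On the scale of log2(CPM + 0.5), the mean of *wild-type* set A was nearer to *Hp1γ*Δ/Δ ESCs in 213 of the 323 genes called higher and in 198 of the 283 called lower. It was nearer to *Hp1β*Δ/Δ ESCs in the other 110 and 85. With *wild-type* set B these shares were 70.0% and 66.4%, beside 65.9% and 70.0% with set A. With *Hp1α*Δ/Δ ESCs they were 80.5% and 82.7%. All 3 references were nearer to *Hp1γ*Δ/Δ ESCs in 185 and 156 genes and nearer to *Hp1β*Δ/Δ ESCs in 38 and 24.

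Loss of HP1β could also be followed in libraries that the comparison did not use, by setting *Hp1α/β*Δ/Δ ESCs against *Hp1α*Δ/Δ ESCs. There 2.16% of 15751 genes tested were called higher and 2.03% lower. Of the 323 genes higher in *Hp1γ*Δ/Δ than in *Hp1β*Δ/Δ ESCs, 312 were tested, and 52 of them (16.7%) were lower in *Hp1α/β*Δ/Δ ESCs while 21 (6.73%) were higher. Of the 283 lower genes 240 were tested, and 35 (14.6%) were higher while 13 (5.42%) were lower. Most genes of either set were thus not called in α-null cells.

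*Usp26* was among the genes lower there, with a log2 fold change of −4.71 in *Hp1α/β*Δ/Δ against *Hp1α*Δ/Δ ESCs and means of 4.79 and 125 CPM. *Cyct* and *Fmr1nb* had −2.60 and −2.16, and *Ddx60* −3.84. Among genes higher there, *Krt8* had 1.49, *Krt18* 1.48, *Wnt3* 2.05, *Hand1* 1.66 and *Cdx2* 2.49. Other named genes were called the opposite way on loss of HP1β in α-null cells. Of those higher in *Hp1γ*Δ/Δ ESCs, *Dnah12* had 1.6, *Ndufa4l2* 1.38, *Col6a3* 1.21, *Zfy1* 1.13 and *Asb4* 1.02. Of those lower, *Pcdhb17* had −1.85, *Mcc* −1.20 and *Gm37245* −1.14.

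The contrast between loss of HP1γ and of HP1β was then taken in cells without HP1α, as *Hp1α/γ*Δ/Δ against *Hp1α/β*Δ/Δ ESCs, each over its own *wild-type* set. This contrast shares the *Hp1α/β*Δ/Δ libraries with the preceding one. In it, 6.02% of 16816 genes tested were called higher and 12.1% were called lower. Of the genes higher in *Hp1γ*Δ/Δ ESCs 320 were tested, of which 80 were higher (25.0%) and 69 were lower (21.6%). Of the genes lower in *Hp1γ*Δ/Δ ESCs 264 were tested, of which 61 were lower (23.1%) and 38 were higher (14.4%). Calls were thus made in both directions in either set. Replicate 2 of *Hp1α/γ*Δ/Δ ESCs stood apart from its group, and without it 82 of the former genes were higher and 77 lower, and 65 of the latter were lower and 40 higher, beside 6.09% and 12.4% of all genes.

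*Usp26*, *Fmr1nb* and *Mcc*, which were picked after their values were seen, had log2 fold changes of 2.77, 4.71 and −2.74 in α-null cells. The difference from the contrast in α-intact cells had standard errors of 0.25 to 0.604 and an edgeR adjusted p of 0.452, 0.755 and 0.532, which does not show that the contrasts are equal. Over all genes, the contrast differed between α-intact and α-null cells in 37.6% of 17152 genes tested at an adjusted p under 0.05.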

How the data were processed

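The RNA-seq data used here cover 9 groups of 3 libraries, 27 in all. The expected counts of each gene, which RSEM estimates from aligned reads, were deposited by the authors without normalization. For these counts the processing notes of the submitters name TopHat2 2.1.1, RSEM, edgeR and GRCm38.p5. TPM values deposited by the authors were used only for the HP1 genes. Deposited columns of fold changes and adjusted p values, which hold the authors' own comparisons with *wild-type*, were not used, nor was the *Setdb1* table.

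Expected counts were rounded and fitted in edgeR 4.0.16 (R 4.3.3) on the 6 libraries of the comparison alone, with filterByExpr at a minimum count of 10, TMM, glmQLFit and glmQLFTest. The study used DESeq2, here an alternative (1.42.0). A call required an adjusted p (Benjamini-Hochberg) below 0.05 together with a log2 fold change above 1 or below −1, and differences between contrasts were called at the adjusted p alone. CPM were scaled over 27 libraries, while fold changes come from the fit. The 6 libraries held 19961427 to 24699653 counts. Positions are from GENCODE M21 (GRCm38), which matched 55227 of 55487 genes.

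The named genes are the HP1 genes, *Pou5f1*, *Nanog* and *Sox2*, the 12 largest rises and 12 largest falls among called genes with a symbol, separated groups and at least 5 CPM, up to 4 called members of each of 38 lists in each direction, and the longest runs of neighbours. Some genes that this rule selects are not reported here. Other list members were named after their values were seen. The genes, lists and comparisons were chosen with earlier results of these data known. Alternatives were RLE size factors, DESeq2, other filters, no fold threshold, a replicate block, a joint fit of 18 libraries, the double mutants without *wild-type* and each library left out. The count without chromosome 16 and the counts of called genes without replicate 2 of *Hp1α/γ*Δ/Δ ESCs were chosen after seeing the data. On simulated data for the comparison of both single mutants, with 15549 genes, 100% of 100 genes changed by 1.5 and of 100 changed by 3 on the log2 scale were recovered, and 2 unchanged genes were called. The changed genes were drawn only from those with higher mean counts, and all genes had the same dispersion. Recovery of weakly expressed genes, which most called genes are, was therefore not tested.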

Additional observations from a re-analysis of the deposited data

Results flagged for a closer look

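The contrast between loss of HP1γ and of HP1β differed between cells with and without HP1α, by a test of the difference itself (the quasi-likelihood test of edgeR, adjusted by Benjamini-Hochberg), in 6455 of 17152 genes. Of the 22 genes named here for large rises and falls, 16 differed. These genes were chosen by the contrast in cells with HP1α, which enters the difference. Values are the α-null minus the α-intact contrast on the log2 scale.

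Of the genes higher in *Hp1γ*Δ/Δ ESCs, *Asb4* (−3.90) was lower in the α-null contrast, at −1.36, and *Cyct* (2.01) was higher there, at 4.37. *Slc15a2* (−9.25), *Pagr1a* (−9.90), *Ndufa4l2* (−3.0), *Zfy1* (−2.53), *Slfn9* (−2.26) and *Stra8* (−1.41) had α-null contrasts of −3.23, −5.34, −0.49, 0.22, 0.52 and 0.78, none of which passed (edgeR adjusted p = 0.0694, 0.108, 0.312, 0.685, 0.203 and 0.202). Of the lower genes, *Pla2g7* (7.61), *Bmp4* (3.74) and *Xlr3b* (3.17) had α-null contrasts of 5.35, 2.08 and 0.86, which passed the adjusted p. *Dmkn* (3.11) and *Pdzd2* (1.80) had 0.92 and −0.18 there, which did not (edgeR adjusted p = 0.137 and 0.651), and *Wnt3* (−3.57), *Unc45b* (−1.77) and *Hand1* (−1.66) had −5.74, −3.46 and −3.56, which did. The differences of *Slc15a2* and *Pagr1a* had standard errors of 1.47 and 2.56.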

How the results depend on the processing

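The 606 genes called between the single mutants became 607 with RLE size factors, 554 with DESeq2, 755 with at least 1 count in total, 413 with at least 10 counts in every library, 778 in the joint fit, 588 without chromosome 16 and 513 to 662 when a library was left out. Without the fold threshold they were 4864. For *Hp1α/β*Δ/Δ against *Hp1α*Δ/Δ ESCs, 661 genes became 5592 without the fold threshold, 419 with at least 10 counts in every library, where fewer genes were tested, and 606 to 649 when a library was left out. For the α-null contrast, 3049 genes became 6062 without the fold threshold and 2758 to 3224 when a library was left out, and the 6455 genes of the difference became 5838 to 8325, with the most without replicate 2 of *Hp1α/γ*Δ/Δ ESCs. The share of genes nearer to *Hp1γ*Δ/Δ ESCs moved to 80.5% and 82.7% with *Hp1α*Δ/Δ ESCs as the reference, and the cause was not tested. Of 86 called named genes none changed direction under any alternative and 64 kept their call in all, while 22 lost it in at least 1, among them *Tbx6*, *Tex101*, *Nr4a2*, *Snai1*, *Wnt3a*, *Sema3f*, *Gtsf1*, *Rhox6*, *Rhox9*, *Rhox13* and *Col5a2*. *Epop* lost it without replicate 1 of *Hp1β*Δ/Δ ESCs, and *Etv4* and *Mael* without replicate 2 of *Hp1γ*Δ/Δ ESCs.

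With the replicate number as a block, 564 genes were called between the single mutants. Deviations from the group mean correlated across genes at 0.0516, 0.0197 and 0.0394 for libraries of the same number. This is under the 0.1 taken as pairing, so the main fit did not pair them. Each library still correlated best with its own number, and the source of this was not tested. Precision falls with the level, with a standard error of 0.049 on the log2 scale for *Cbx1* and 0.489 for *Cdx2*.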
